A study of Rattus norvegicus with 15 samples.

Results

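The genes described here encode proteins that hold the sarcomere together at its 2 anchoring planes, the Z-disc and the M-band, together with the giant filament protein nebulin. They were chosen by name, and 7 of the 9 genes on the list have a row among the 11574 genes of the count table. These are Neb, Ldb3, Actn2, Actn3, Myom1, Myom2 and Myom3, while Ttn and Myoz1 were not analysed here. H9c2 cells are wild-type rat myoblasts, established as a line from the embryonic heart. RNA of 15 cultures was sequenced, 3 for each of 5 groups. T0 cultures were harvested at day 0 without retinoic acid (RA), T7-RA and T14-RA at day 7 and day 14 without RA, and T7+RA and T14+RA at the same days with 1 μM all-trans RA added daily. All groups were seeded in 10% serum and left 24 h to attach, and differentiation was started by lowering the serum to 1%. T0 marks the start of this step, so that culture time and the change of serum cannot be told apart in comparisons with T0. RA was dissolved in DMSO, and the labels do not say whether the -RA cultures received DMSO. All cultures come from a single established cell line, so the spread between them is that of cultures and not of animals.

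In striated muscle, alpha-actinin cross-links the actin thin filaments of neighbouring sarcomeres at the Z-disc, where PDZ-LIM proteins such as the Ldb3 product bind it. Nebulin runs along the thin filament with its end anchored in the Z-disc and is known to set and stabilise thin filament length in skeletal muscle. At the centre of the sarcomere, myomesins cross-link the myosin thick filaments and titin in the M-band, and the myomesin isoforms differ between fibre types and between embryonic and adult muscle. RA acts through nuclear receptors that bind DNA.

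The 7 genes were nearly silent or low at T0, and all 7 were higher at day 14. The mean level at day 14 was lower with RA for 6 of them and higher for Ldb3. The RA change passed the test for Myom2 and Actn2 over both days and for Myom1 at day 14. Levels are given as CPM, the count of a gene relative to the total count of its library, with TMM factors to correct for libraries of unequal composition. The libraries held between 508397 and 1030820 counts, so that 1 CPM corresponds to about 1 count or less. The 7 genes differ strongly in depth, from 7234 counts over all libraries for Neb to 37 for Myom3. Between these lie Ldb3 with 1350 counts, Myom1 with 852, Myom2 with 784, Actn3 with 162 and Actn2 with 127. Values of Myom3, Actn2 and Actn3 therefore rest on few counts in each library. In bulk cultures, fewer myotubes and less of a transcript per myotube cannot be told apart.

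Upstream sequences are shown for a few of the genes, because these genes moved together in time. A further reason was that the RA change of Ldb3 was opposite in sign to that of the others, although it was not called. RefSeq promoter sequences of the GRCr8 assembly were matched by symbol for 6 of the 7 genes. This assembly is not the one the reads were mapped to, which per the labels is Rnor_6.0. Each line gives the 250 bases before the annotated start of transcription, 5′ to 3′ on the strand of the gene. Capitals mark E-boxes, the MEF2 element and the CArG box, the last of which is the motif of serum response factor. The E-box pattern CANNTG is shared by bHLH factors in general and is not particular to the myogenic ones.
Neb promoter, chr3:57220710-57220959, minus strand: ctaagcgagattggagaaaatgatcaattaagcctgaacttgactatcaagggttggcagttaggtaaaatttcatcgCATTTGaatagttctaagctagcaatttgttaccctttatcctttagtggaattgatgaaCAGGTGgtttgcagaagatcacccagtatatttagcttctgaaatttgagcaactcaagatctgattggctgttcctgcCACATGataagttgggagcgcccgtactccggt
Ldb3 promoter, chr16:9924680-9924929, minus strand: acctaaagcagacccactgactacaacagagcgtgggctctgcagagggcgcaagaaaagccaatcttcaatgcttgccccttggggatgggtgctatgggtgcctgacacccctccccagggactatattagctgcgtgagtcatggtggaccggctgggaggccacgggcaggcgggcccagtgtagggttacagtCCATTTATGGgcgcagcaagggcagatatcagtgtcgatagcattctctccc
Actn2 promoter, chr17:62834805-62835054, plus strand: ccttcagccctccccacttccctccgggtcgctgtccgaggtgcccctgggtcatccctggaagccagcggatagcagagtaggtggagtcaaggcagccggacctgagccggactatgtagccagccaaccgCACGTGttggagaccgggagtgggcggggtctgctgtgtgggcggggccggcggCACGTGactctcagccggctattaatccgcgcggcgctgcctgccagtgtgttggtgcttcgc
Actn3 promoter, chr1:211604402-211604651, minus strand: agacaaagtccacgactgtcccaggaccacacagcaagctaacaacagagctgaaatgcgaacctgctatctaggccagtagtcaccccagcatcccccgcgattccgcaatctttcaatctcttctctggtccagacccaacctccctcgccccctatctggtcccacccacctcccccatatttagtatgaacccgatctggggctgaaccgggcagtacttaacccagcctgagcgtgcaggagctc
Myom3 promoter, chr5:153276056-153276305, plus strand: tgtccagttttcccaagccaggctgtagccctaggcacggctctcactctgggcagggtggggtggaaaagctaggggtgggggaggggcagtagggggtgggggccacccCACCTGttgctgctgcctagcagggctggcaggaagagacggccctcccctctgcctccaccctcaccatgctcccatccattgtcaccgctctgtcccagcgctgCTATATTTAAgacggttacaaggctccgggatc

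The Neb window holds 3 E-boxes, the Actn2 window 2 copies of CACGTG and the Myom3 window 1 E-box, and Myom1 (not printed) holds 2. Of all 33469 promoter windows of this length, 65.5% hold an E-box, compared with 4 of the 6 genes. A MEF2 element was present in the Myom3 window only among the 6, and in 2.96% of all windows. The CArG box of Ldb3 begins 52 bases before the start, and 1.5% of all windows hold such a match. The half-site AGGTCA, to which retinoic acid receptors bind as repeats, was searched on both strands and was in none of the 6 windows, compared with 4707 of all windows. The Actn3 window held none of the 4 motifs searched. These are matches of letters, and binding was not measured.

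Libraries were checked against lists of cell type markers. Of 10 skeletal muscle markers, 8 were in the table, and their summed level was 272.5 to 302.1 CPM at T0 and 9277 to 9828 CPM in T14-RA. With RA it was 1400 to 1693 CPM at T7 (2504 to 3018 CPM without RA) and 3995 to 4706 CPM at T14. Of 10 cardiomyocyte markers only Gata4, Hand2 and Pln were in the table, and their summed level was 12.4 to 28.1 CPM at T0, 37.3 to 51.6 CPM in T14-RA and 29.0 to 45.3 CPM in T14+RA. Both day 14 groups lay wholly above T0, and 0 of the 3 genes were called at T14 or with RA in edgeR's test. Of the 3, 1 had an unadjusted p under 0.05 in each, Pln (edgeR adjusted p = 0.00173 at T14 and 0.0208 with RA). Mean Pln was 0.46 CPM at T0, 11.4 in T14-RA and 16.7 in T14+RA. In the same groups Gata4 had 12.4, 15.9 and 12.2 CPM and Hand2 9.03, 16.5 and 9.01 CPM. Nkx2-5, Tbx5, Myh6, Tnni3, Nppa, Nppb and Ryr2 were not among the genes analysed, so that this list holds few cardiac markers. The paper followed other cardiac genes, among them Tnnt2 by sequencing and Ryr2 by qPCR. All 6 smooth muscle markers were present, at 15822 to 17306 CPM in sum at T0 and 3576 to 3698 CPM in T14-RA. With RA their sum at T14 was 4162 to 4982 CPM, wholly above T14-RA. Of the 6, Acta2 rose with RA at day 14 (log2 fold change 0.39, edgeR adjusted p = 0.000935) and Smtn fell (−1.38, edgeR adjusted p = 1.29e-08). For fibroblasts 4 of 7 markers were present, with sums between 18448 and 37564 CPM, for endothelium 1 of 5, at 6.29 CPM or less, and for leukocytes 0 of 5. The fibroblast sum was nearly all Col1a1, which fell at T14 (log2 fold change −0.56, edgeR adjusted p = 7.17e-06), from 29893 CPM on average at T0 to 20184 CPM in T14-RA. Thy1 had a T14 change of −0.13 (edgeR adjusted p = 0.454). Dcn and Lum had 0 counts at T0 and rose to 50.5 ± 7.19 and 28.5 ± 2.70 CPM in T14-RA (SD, n = 3), with edgeR adjusted p-values of 4.79e-11 and 5.96e-08 at T14. With RA over both days Dcn rose (1.08, edgeR adjusted p = 0.000229), while Lum (−1.88, edgeR adjusted p = 0.000484) and Thy1 (−0.49, edgeR adjusted p = 5.26e-05) fell. The skeletal marker sum was higher at T14 than at T0, as were all 7 genes, and lower with RA at both days, as were the mean levels of 6 of them but not that of Ldb3. This sum was mostly Myh3 and Acta1, with means of 5056 and 3258 CPM in T14-RA. Myod1, on the same list, had means of 115.2 CPM at T0 and 80.2 CPM in T14-RA, and its level was 135.4 to 161.1 CPM in T7+RA against 76.3 to 95.9 CPM in T7-RA (log2 fold change 0.77, edgeR adjusted p = 0.00106). The part of these markers in the changes below was not tested.

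Neb (ENSRNOG00000006783, band 3q12) encodes nebulin, the giant protein of the thin filament. Its level was 41.4, 39.4 and 58.7 CPM in the 3 T0 cultures, 433.0, 317.2 and 608.6 CPM in T7-RA, and 2140, 1419 and 2069 CPM in T14-RA. With RA it was 243.7, 251.0 and 349.7 CPM at T7 and 715.8, 531.2 and 1251 CPM at T14. The groups of the 3 time points did not overlap without RA, and every T14+RA culture lay below every T14-RA culture. At T7 the ranges with and without RA overlapped. Replicates of Neb were spread widely, with an SD of 397.8 CPM around a mean of 1876 CPM in T14-RA and of 373.8 around 832.6 CPM in T14+RA.

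Ldb3 (ENSRNOG00000059166, 16p15) encodes the PDZ-LIM protein of the Z-disc also known as ZASP or Cypher. It was measured at 40.0, 11.3 and 44.0 CPM at T0, at 66.8, 43.0 and 50.8 CPM in T7-RA and at 221.0, 175.3 and 226.9 CPM in T14-RA. The +RA cultures had 69.8, 59.1 and 68.6 CPM at T7 and 249.8, 260.9 and 355.3 CPM at T14. Here the order with RA was the reverse of that of Neb, with all 3 T14+RA cultures above all T14-RA cultures. At T7 the +RA and -RA ranges overlapped.

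Actn2 (ENSRNOG00000017833, 17q12.1) and Actn3 (ENSRNOG00000019745, 1q43) encode the sarcomeric alpha-actinins, of which the product of Actn3 is known from fast skeletal fibres and that of Actn2 from heart and all skeletal fibres. No read of either gene was counted at T0, where 3 counts over the 3 libraries, about the upper 95% limit for a count of 0, would be 1.73 CPM. Actn2 had 7.16, 6.72 and 13.1 CPM in T7-RA and 45.6, 24.8 and 47.4 CPM in T14-RA, compared with 0, 6.71 and 8.57 CPM in T7+RA and 8.68, 4.71 and 9.06 CPM in T14+RA. Its T14+RA level overlapped that of both groups of day 7. Actn3 had 7.16, 2.69 and 10.2 CPM in T7-RA and 48.0, 37.2 and 47.4 CPM in T14-RA, and 4.28, 2.68 and 5.14 CPM in T7+RA and 16.4, 20.4 and 36.3 CPM in T14+RA. For both genes the T14+RA cultures lay below the T14-RA cultures without overlap.

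Myom1 (ENSRNOG00000057701, 9q38) encodes myomesin-1, the myomesin that all striated muscles make. It was present from the start, at 30.3, 16.9 and 35.6 CPM in the T0 cultures. It reached 54.9, 48.4 and 55.2 CPM in T7-RA and 183.8, 201.9 and 157.5 CPM in T14-RA, and with RA 48.5, 38.9 and 60.0 CPM at T7 and 92.6, 102.2 and 117.8 CPM at T14. At T7 the cultures with and without RA overlapped, and at T14 they did not.

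Myom2 (ENSRNOG00000011754, 16q12.5) encodes myomesin-2, also called M-protein, which is typical of fast fibres. Its T0 cultures had 1.38, 0 and 4.19 CPM, from 3 counts in all. The level was 47.7, 32.3 and 45.0 CPM in T7-RA and 266.7, 281.6 and 252.3 CPM in T14-RA, compared with 17.1, 10.7 and 13.7 CPM in T7+RA and 50.2, 58.1 and 70.7 CPM in T14+RA. This was the only gene of the 7 whose +RA cultures lay below the -RA cultures at both days. Of all genes, 12.6% lay wholly below at T7 and 13.9% at T14, and the share below at both days was not computed.

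Myom3 (ENSRNOG00000032994, 5q36) encodes myomesin-3, described in intermediate-speed fibres. It had 0 counts in all T0 cultures, 4.77, 0 and 1.45 CPM in T7-RA, 4.80, 7.08 and 15.2 CPM in T14-RA, 0, 1.34 and 0 CPM in T7+RA and 5.79, 3.14 and 10.9 CPM in T14+RA. The ranges with and without RA overlapped at both days.

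**Figure D1:**
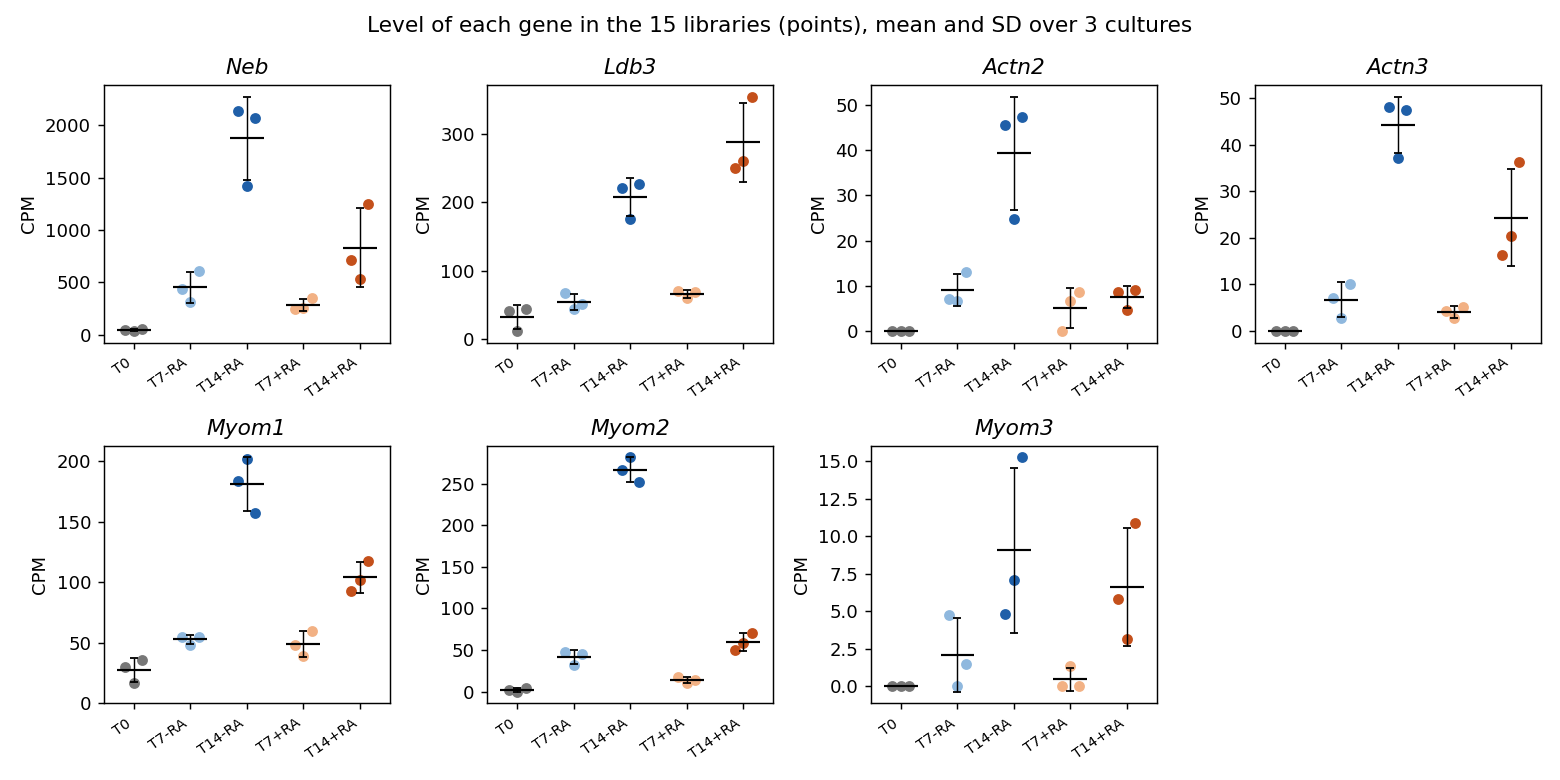
Level of each of the 7 genes in CPM (vertical axis, linear, scaled for each gene) in the 5 groups (horizontal axis). Points are the 15 cultures, and bars show the mean and SD over 3 cultures. T14-RA is the highest group for 6 genes, and T14+RA is the highest for Ldb3.

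To compare genes with each other, CPM was divided by the gene size in the deposited annotation, whose header does not say how that size was taken. In T14-RA, Neb had the highest length-scaled level at 93.2 ± 19.8 CPM per kilobase (SD, n = 3), followed by Myom2 at 59.1 ± 3.25, Ldb3 at 41.4 ± 5.63, Myom1 at 35.7 ± 4.41, Actn3 at 15.4 ± 2.12, Actn2 at 13.2 ± 4.22 and Myom3 at 2.09 ± 1.27. The ranges of Ldb3 and Myom1 overlapped in this order, and so did those of Actn3 and Actn2. In T14+RA the order was Ldb3 at 57.6 ± 11.6 CPM per kilobase, Neb at 41.4 ± 18.6, Myom1 at 20.6 ± 2.51, Myom2 at 13.2 ± 2.29, Actn3 at 8.47 ± 3.65, Actn2 at 2.51 ± 0.809 and Myom3 at 1.53 ± 0.911. Here Ldb3 overlapped Neb, Myom2 overlapped Actn3, and Actn2 overlapped Myom3. Myom2 was thus above Myom1 without overlap in T14-RA and below it without overlap in T14+RA. At T0 the order was led by Ldb3 (6.33 ± 3.56 CPM per kilobase) and Myom1 (5.45 ± 1.91), which overlapped. Neb followed at 2.31 ± 0.527, and its range overlapped that of Ldb3 but not that of Myom1.

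**Figure D2:**
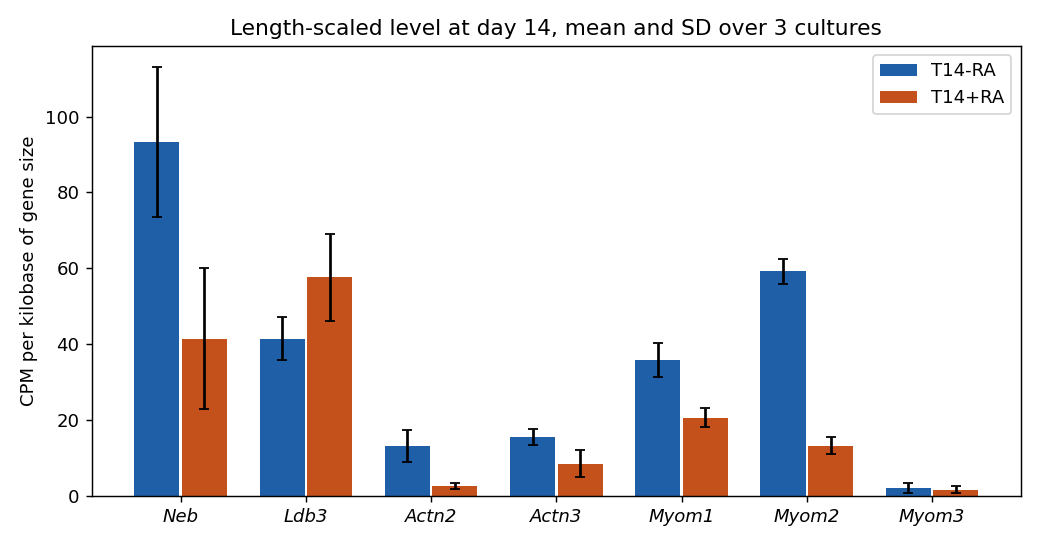
Length-scaled level, in CPM per kilobase of gene size (vertical axis), of the 7 genes in T14-RA and T14+RA. Bars are means and whiskers SD over 3 cultures. Neb is the highest bar in T14-RA and Ldb3 in T14+RA.

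Changes from T0, which join culture time and the lowered serum, were tested with an additive model with T7, T14 and RA terms, in which T7 and T14 are changes against T0 adjusted for RA. All 7 genes rose at T14 at an adjusted p under 0.001 (edgeR quasi-likelihood test, Benjamini-Hochberg over all genes), and 8.47% of all 11574 genes did. The T14 log2 fold change was 5.26 for Neb (SE 0.442, edgeR adjusted p = 1.29e-06), 2.72 for Ldb3 (SE 0.221, edgeR adjusted p = 6.37e-14) and 2.60 for Myom1 (SE 0.218, edgeR adjusted p = 3.66e-15). Myom2 had 530 counts in T14-RA and 3 at T0. The ratio of these pooled counts after scaling for library size was 154.2 (exact 95% counting interval 52.5 to 750.1). In T14+RA the same ratio to T0 was 33.3 (11.1 to 163.5). The T14 term of Myom2, fitted on cultures with and without RA, had an edgeR adjusted p of 1.53e-25. Against the floor of 3 counts over the 3 T0 libraries, T14-RA was at least 25.9-fold higher for Actn3, 23.3-fold for Actn2 and 4.95-fold for Myom3. For T14+RA these bounds were 13.0, 4.42 and 3.64. The edgeR adjusted p of the T14 term was 6.67e-12 for Actn3, 2.6e-09 for Actn2 and 0.000696 for Myom3. With these genes at their T14-RA bounds, the median log2 change of the 7 genes was 4.54 (5.71 from fitted values), and the median of all genes was 0.05. The call of Myom3 was lost in DESeq2 (adjusted p = 0.00191), in limma-voom (0.00168) and without any of T0 replicates 1, 2 and 3 or T14-RA replicate 3 (0.00267 to 0.00656).

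At T7, 5 of the 7 genes rose at the same threshold, compared with 4.29% of all genes, and 0 fell, compared with 4.44%. The T7 log2 fold change was 3.43 for Neb (SE 0.459, edgeR adjusted p = 0.000177) and 1.13 for Myom1 (SE 0.247, edgeR adjusted p = 0.000378). For Myom2, with 95 counts in T7-RA, the ratio to T0 after the same scaling was 24.2 (exact counting interval 8.03 to 119.4). In T7+RA it was 7.98 (2.46 to 41.0), and the T7 term had an edgeR adjusted p of 2.76e-11. Actn2 and Actn3 were at least 5.09-fold and 3.82-fold higher in T7-RA than the T0 floor. In T7+RA these bounds were 2.85 and 2.28, and the T7 terms had edgeR adjusted p-values of 0.000241 and 0.000847. Ldb3 had a T7 log2 change of 0.68 (SE 0.258, edgeR adjusted p = 0.0496) and Myom3 had 5 counts in T7-RA and 1 in T7+RA (edgeR adjusted p = 0.162). The number called was 3 with DESeq2 and 2 with limma-voom. It was 1 without T0 replicate 1 or T0 replicate 2, and 3 without T0 replicate 3 or T7-RA replicate 3. Over the 15 fits without 1 library, the call of Actn3 was lost in 10, that of Actn2 in 4 and those of Neb and Myom1 in 2 each. In limma-voom the adjusted p was 0.00548 for Actn3, 0.00307 for Actn2 and 0.00221 for Myom1.

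The second week was tested in a model with a mean for each of the 5 groups. Without RA, 5 of the 7 genes rose between T7-RA and T14-RA (edgeR adjusted p under 0.001), compared with 1.87% of all genes rising. The log2 fold change was 2.67 for Myom2 (SE 0.173, edgeR adjusted p = 4.49e-20), 2.72 for Actn3, 2.15 for Actn2, 1.95 for Ldb3 and 1.77 for Myom1. Neb changed by 2.06 (SE 0.325, edgeR adjusted p = 0.00221), which passed the threshold with DESeq2 (adjusted p = 2.1e-07), with limma-voom (1.92e-11) and without T14+RA replicate 3 (0.000542). The Neb change also passed in edgeR with replicate number as a block (adjusted p = 3.39e-15). All 7 genes were above T7-RA in T14-RA without overlap, as were 13.2% of all genes. The call of Actn2 was lost without T7-RA replicate 1 or 2 or T14-RA replicate 1 or 3 (adjusted p 0.00157 to 0.00351).

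With RA, 4 genes rose between T7+RA and T14+RA, compared with 2.40% of all genes rising. The log2 fold change was 2.11 for Ldb3 (SE 0.182, edgeR adjusted p = 8.63e-12), 2.06 for Myom2 (SE 0.279, edgeR adjusted p = 4.3e-08), 2.48 for Actn3 (SE 0.486, edgeR adjusted p = 0.000105) and 1.08 for Myom1 (SE 0.194, edgeR adjusted p = 2.29e-05). Actn2 changed by 0.61 (SE 0.613, edgeR adjusted p = 0.636) and Neb by 1.56 (SE 0.349, edgeR adjusted p = 0.014). The Neb change passed with DESeq2 (adjusted p = 0.000204), limma-voom (3.01e-06) and edgeR with replicate number as a block (8.27e-11). The call of Actn3 was lost in DESeq2 (adjusted p = 0.00155), in limma-voom (0.0022) and without T7+RA replicate 1 or 2 or T14+RA replicate 3 (0.00128 to 0.00344). Without T7+RA replicate 2 only 2 genes were called, with Myom1 at an adjusted p of 0.00214.

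The mean RA change over both days compared cultures with and without RA in DMSO, so that RA and its vehicle cannot be told apart if -RA cultures received none. Myom2 and Actn2 fell with RA at an adjusted p under 0.001, 2 of 7 genes, compared with 3.07% of all genes lowered, and 0 of the 7 rose, compared with 3.33%. Myom2 fell by 2.06 on the log2 scale (SE 0.149, edgeR adjusted p = 1.98e-17). Actn2 fell by 1.89 (SE 0.348, edgeR adjusted p = 3.85e-05), and without T14-RA replicate 1 its adjusted p was 0.00135. The RA log2 fold change was −0.58 for Myom1 (SE 0.135, edgeR adjusted p = 0.00119), −0.97 for Neb (SE 0.237, edgeR adjusted p = 0.0159), −0.91 for Actn3 (SE 0.269, edgeR adjusted p = 0.013) and −0.68 for Myom3 (SE 0.571, edgeR adjusted p = 0.522). For Ldb3 it was 0.40 (SE 0.129, edgeR adjusted p = 0.029), and with 1 library left out 0.29 to 0.46 (edgeR adjusted p 0.00554 to 0.142). The median over the 7 genes was −0.91, and the median of all genes was −0.01. Neb was called with limma-voom (adjusted p = 5.7e-07) and in edgeR with replicate number as a block (3.27e-05). Myom1 was called with that block (0.00071) and with library size only as the scaling (0.000679). It was also called without T0 replicate 2 or 3, T7-RA replicate 2 or T7+RA replicate 3 (0.000304 to 0.000618).

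At day 7, Myom2 fell with RA, 1 of the 7 genes (log2 fold change −1.59, SE 0.296, edgeR adjusted p = 5.59e-05), compared with 1.30% of all genes lowered, and 0 rose, compared with 1.87%. Its call was lost without T7-RA replicate 1 (adjusted p = 0.00176) or T7+RA replicate 2 (0.00295). The other day 7 changes lay between −1.81 for Myom3 and 0.28 for Ldb3, with adjusted p-values from 0.378 to 0.855 in edgeR's test. Neb changed by −0.69 (SE 0.358, edgeR adjusted p = 0.378), and it passed in edgeR with replicate number as a block (−0.66, adjusted p = 0.000662). Myom1 changed by −0.12 (SE 0.217, edgeR adjusted p = 0.855), a change that turned to 0.026 without T7+RA replicate 2.

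At day 14, 3 of the 7 genes fell with RA, compared with 2.35% of all genes, and 0 rose, compared with 2.46%. Actn2 fell by 2.36 on the log2 scale (SE 0.406, edgeR adjusted p = 9.92e-06), Myom2 by 2.20 (SE 0.165, edgeR adjusted p = 1.89e-17) and Myom1 by 0.82 (SE 0.157, edgeR adjusted p = 6.92e-05). The mean level in T14+RA was 0.191 times that in T14-RA for Actn2, 0.224 times for Myom2 and 0.576 times for Myom1. Neb changed by −1.19 (SE 0.311, edgeR adjusted p = 0.0333), Actn3 by −0.95 (SE 0.3, edgeR adjusted p = 0.0257) and Ldb3 by 0.45 (SE 0.152, edgeR adjusted p = 0.0497). These changes miss the threshold of 0.001, although the cultures with and without RA did not overlap for any of these 3 genes. With 1 library left out, the Ldb3 change ranged from 0.29 to 0.55 (edgeR adjusted p 0.00708 to 0.27). Counting such separated groups, 5 of the 7 genes lay wholly below T14-RA in T14+RA, compared with 13.9% of all genes, and 1 lay wholly above, compared with 13.4%. Myom3 changed by −0.44 (SE 0.644, edgeR adjusted p = 0.779), with the opposite sign without T14-RA replicate 3 (0.14). The call of Myom1 was lost with DESeq2 (adjusted p = 0.0013) and without T14-RA replicate 1 or 2 or T14+RA replicate 1 (0.00127 to 0.00547). A call of Neb was gained with limma-voom (adjusted p = 1.01e-07) and in edgeR with replicate number as a block (1.94e-10).

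**Figure D3:**
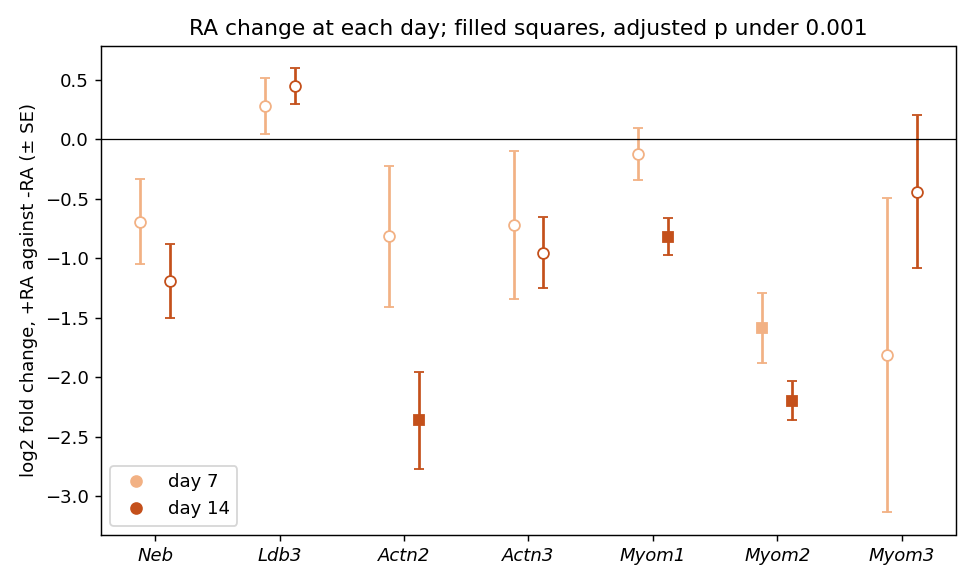
Log2 fold change of +RA against -RA cultures (vertical axis) for the 7 genes at day 7 and day 14, with whiskers of 1 SE from edgeR. Filled squares mark an adjusted p under 0.001, which Myom2 reached at both days and Actn2 and Myom1 at day 14. Ldb3 lies above 0 at both days.

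Whether the RA change differed between the days was tested directly. In edgeR's test of the difference, 0 of the 7 genes passed an adjusted p of 0.05, compared with 0.743% of all genes. DESeq2 and limma-voom also called 0, and 1 gene, Myom1, had an unadjusted p under 0.05. The difference (day 14 minus day 7) was −0.69 for Myom1 (SE 0.269, edgeR adjusted p = 0.369) and −1.54 for Actn2 (SE 0.782, edgeR adjusted p = 0.607). The low counts of Actn2, Actn3 and Myom3 at day 7 leave wide errors on this comparison.

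The levels of T14+RA were also set beside those of T7-RA. The mean T14+RA level was 0.833 times that of T7-RA for Actn2, 1.43 times for Myom2, 1.84 times for Neb, 1.97 times for Myom1, 3.18 times for Myom3, 3.65 times for Actn3 and 5.39 times for Ldb3. Cultures of these groups overlapped for Actn2, Neb and Myom3, and T14+RA lay wholly above T7-RA for the other 4 genes, as for 16.4% of all genes.

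Paralogs were compared within a library by the log2 ratio of their counts, with a prior count of 0.5, in which the gene length cancels when ratios are compared. Pooled over cultures, Myom2 took 44.2% of the Myom1 and Myom2 counts in T7-RA (exact 95% interval 37.4 to 51.1) and 59.6% in T14-RA (56.2 to 62.8). With RA its share was 22.2% at T7 (15.3 to 30.5) and 36.2% at T14 (31.1 to 41.4), and at T0 it was 5.88% (1.23 to 16.2). The intervals cover counting error and not the spread between cultures. The log2 ratio of Myom2 to Myom1 was lower with RA by a mean difference of −1.39 over both days (exact permutation test within days, two-sided p = 0.005, adjusted p = 0.015 over 6 ratio tests). It was higher at day 14 than at day 7 by 0.94 (exact permutation test within RA status, p = 0.005, adjusted p = 0.015). The p-value of 0.005 is the smallest that the 400 arrangements can give. At each day the 3 cultures with RA lay below the 3 without.

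For the alpha-actinins, Actn3 took 52.7% of the pooled Actn2 and Actn3 counts in T14-RA (44.9 to 60.4) and 74.6% in T14+RA (62.5 to 84.5). These intervals, too, leave out the spread between cultures. The log2 ratio was 0.21 ± 0.31 (SD, n = 3) in T14-RA and 1.58 ± 0.60 in T14+RA, and the ranges did not overlap at day 14. At T7 only 20 and 15 counts of Actn2 and Actn3 without RA and 10 and 8 with RA were available. Over both days the RA difference was 1.10 (exact permutation p = 0.1, adjusted p = 0.198) and the day difference 0.97 (exact permutation p = 0.165, adjusted p = 0.198), neither of which passed. The day difference passed without T7+RA replicate 1, the culture with 0 Actn2 counts (1.59, adjusted p = 0.02). The ratio of Myom3 to Myom1 differed by −0.20 with RA (exact permutation p = 0.75) and by 0.97 with day (exact permutation p = 0.14), and both signs changed with a prior count of 2.

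**Figure D4:**
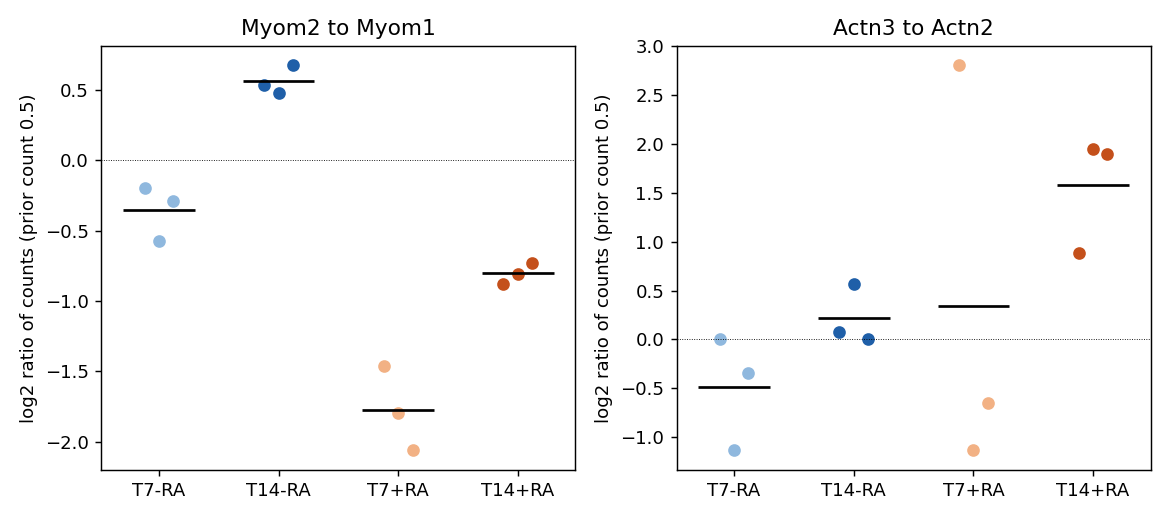
Log2 ratio of counts (vertical axis, prior count 0.5) of Myom2 to Myom1 (left) and of Actn3 to Actn2 (right) in the 12 cultures of day 7 and day 14. Points are cultures and lines the means of 3. The Myom2 to Myom1 ratio is lower with RA at each day, and 1 T7+RA culture without Actn2 counts stands far above the others of its group on the right.

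The alpha-actinins of non-muscle cells moved the other way with time. Actn1 and Actn4, which serve stress fibres and adhesions, summed to 3735 to 4308 CPM at T0 and 1309 to 1404 CPM in T14-RA. At T14 Actn1 fell by 1.69 (SE 0.105, edgeR adjusted p = 1.53e-20). The T14 fall of Actn4 was −1.68 (SE 0.0979), at an edgeR adjusted p of 1.14e-21, compared with 8.85% of all genes falling at T14. Their RA changes were −0.16 (edgeR adjusted p = 0.247) and 0.03 (edgeR adjusted p = 0.86). In T14-RA the summed CPM of the sarcomeric pair was still far lower, with means of 39.3 CPM for Actn2 and 44.2 CPM for Actn3.

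Other genes of the same structures were taken from a list. Of 24 further Z-disc genes, 18 were in the table, and at T14 8 rose, 2 fell and 8 were not called (edgeR adjusted p under 0.001), with a median log2 change of 0.64. Of all genes, 8.47% rose and 8.85% fell at T14. Mypn, which encodes myopalladin and binds nebulin and alpha-actinin, rose from 2 counts over the T0 libraries to 54.8 ± 12.9 CPM in T14-RA. Xirp2 rose from 1 count to 35.8 ± 17.0 CPM. The T14 term had edgeR adjusted p-values of 1.2e-12 for Mypn and 2.85e-09 for Xirp2. Csrp3, a muscle LIM protein, rose by 3.21 on the log2 scale and Des, which encodes desmin, by 2.61. At T7, 2 of the 18 rose and 3 fell, with a median of −0.25, and of all genes 4.29% rose and 4.44% fell. With RA, 2 rose and 3 fell, with a median of −0.04, and of all genes 3.33% rose and 3.07% fell. Mypn fell by 2.64 (SE 0.296, edgeR adjusted p = 1.58e-10), Xirp2 by 1.75 (edgeR adjusted p = 0.000501) and Nexn, an actin-binding protein, by 0.51 (edgeR adjusted p = 5.41e-05), while Fhl2, a LIM protein of the heart, rose by 1.78 (SE 0.132, edgeR adjusted p = 4.28e-17).

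Of 11 other M-band and thick filament genes, 9 were in the table, and at T14 6 rose and 0 fell (8.47% and 8.85% of all genes), with a median log2 change of 3.73. Mybph, a myosin-binding protein H, rose by 5.30 on the log2 scale (SE 0.261, edgeR adjusted p = 2.17e-17), while Mybpc1 and Trim54 rose from 1 and 3 counts over the T0 libraries to 52.2 and 121.4 CPM in T14-RA. At T7, 5 rose and 0 fell (4.29% and 4.44% of all genes), with a median of 1.51. With RA, 1 rose and 3 fell (3.33% and 3.07% of all genes), with a median of −0.14. Mybpc1, a myosin-binding protein C of skeletal muscle, had 52.2 ± 2.84 CPM in T14-RA (SD, n = 3) and 2.94 ± 4.29 CPM in T14+RA (RA change −3.84, SE 0.387, edgeR adjusted p = 5.46e-12). The MuRF family of ubiquitin ligases, which binds titin at the M-band, was divided. The RA change was −2.89 for Trim54 (SE 0.235, edgeR adjusted p = 1.96e-15) and 1.86 for Trim55 (SE 0.105), at an edgeR adjusted p of 3.75e-22, while Trim63 changed by 0.62 (SE 0.178, edgeR adjusted p = 0.0097). Obsl1, which encodes a cytoskeletal linker of the M-band, fell by 1.16 (SE 0.126, edgeR adjusted p = 6.18e-11).

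Among 11 partners of titin and nebulin, 7 were in the table, and at T14 6 rose and 0 fell (8.47% and 8.85% of all genes), with a median log2 change of 1.89. Unc45b and Smyd1, a myosin chaperone and its partner methyltransferase, rose from 6 counts each over the T0 libraries to 142.1 ± 19.6 and 37.6 ± 2.97 CPM in T14-RA. The T14 term had edgeR adjusted p-values of 6.47e-21 for Unc45b and 4.04e-09 for Smyd1. Ankrd23 rose from 1 count to 17.3 ± 1.54 CPM, and Klhl41, which stabilises nebulin, rose by 1.89 on the log2 scale. At T7, 3 rose and 0 fell (4.29% and 4.44% of all genes), with a median of 0.58. With RA over both days, 0 rose and 1 fell (3.33% and 3.07% of all genes), with a median of −0.55. This was Lmod3, a leiomodin of thin filament ends, which fell by 1.03 (SE 0.128, edgeR adjusted p = 4.84e-09). At day 7 alone 1 gene rose, compared with 1.87% of all genes, and 0 fell, compared with 1.30%. It was Ankrd1, an ankyrin repeat protein that binds titin (0.49, edgeR adjusted p = 1.34e-05). At day 14 alone 0 rose and 2 fell, compared with 2.46% of all genes rising and 2.35% falling. These were Lmod3 and Klhl41, and Klhl41 had 928.9 ± 54.6 CPM in T14-RA and 360.4 ± 41.3 CPM in T14+RA (log2 fold change −1.37, edgeR adjusted p = 2e-16). The RA change of Klhl41 at day 14 minus that at day 7 was −1.13 (edgeR adjusted p of the difference 5.7e-06). Over the 3 lists 1 other gene passed this test of the difference at 0.05, compared with 0.743% of all genes. It was Mybph, with RA changes of 0.40 at day 7 and −0.43 at day 14 (difference −0.84, edgeR adjusted p = 0.0112).

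**Figure D5:**
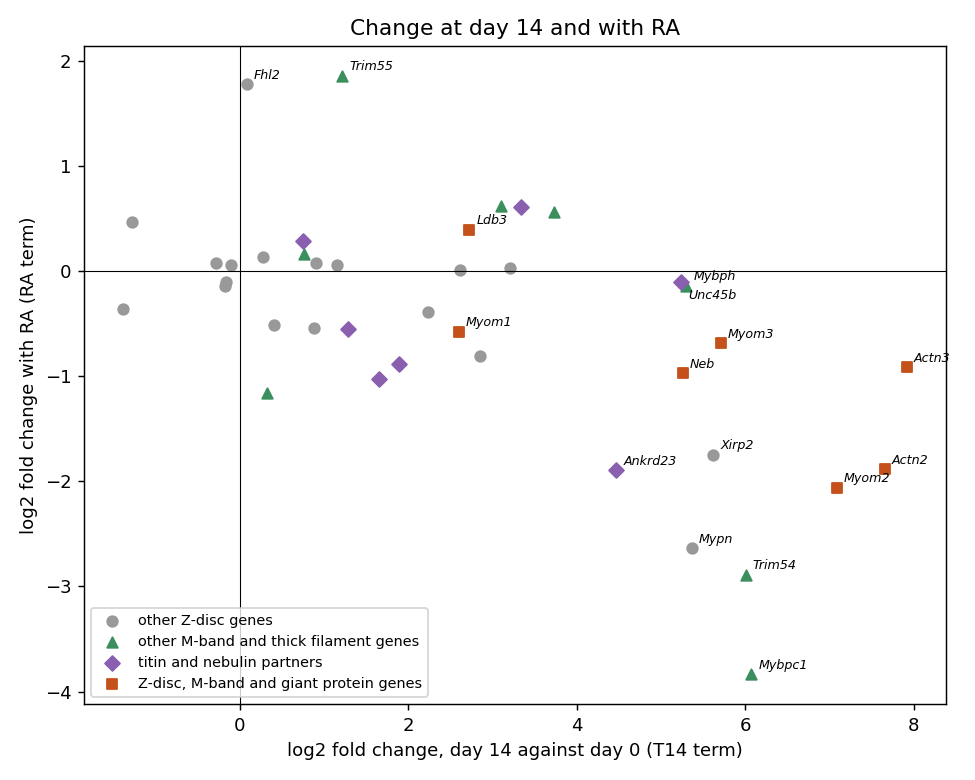
Log2 fold change at day 14 against day 0 (horizontal axis) and with RA (vertical axis) from the additive edgeR model, for the 7 genes (squares) and the 3 lists of other genes of the same structures, without 1 gene not reported here. Fitted day 14 values of genes with 0 or few counts at T0, such as Actn2, Actn3 and Mybpc1, depend on the prior count. Mybpc1, Trim54 and Mypn lie lowest and Trim55 and Fhl2 highest on the vertical axis.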

How the data were processed

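The authors cleaned and trimmed paired reads of stranded mRNA libraries on Galaxy, mapped them with HISAT2 to the rat genome (Rnor_6.0 in the submitters' processing notes) and counted them per gene with featureCounts. They deposited raw counts of genes with more than 20 counts over the 15 libraries. Tool versions, the annotation release and the strand setting are not given in the sources used here, so reads of overlapping genes cannot be told apart, and reads shared by related genes, such as the myomesins or alpha-actinins, could have been split.

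Counts of all 11574 genes were fitted in edgeR 4.0.16 (R 4.3.3) with TMM factors and robust quasi-likelihood dispersions, to the additive model of the paper (T7, T14 and RA) and to 5 group means. P-values were adjusted over all genes and called under 0.001, or under 0.05 for the difference between days. SE is the change divided by the square root of F. Fold changes of genes with 0 counts at T0 are bounds against 3 counts over the 3 libraries. Intervals cover counting error only. Correlations used log2 CPM with a prior count of 2. The scripts were tested on simulated data. No replicate pair was as alike as sampling alone would make it (smallest chi-square per gene 1.07).

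The genes and lists were chosen with earlier results of these data known. Text names the 7 genes, the markers, Actn1 and Actn4, up to 4 called genes per list with the largest T14 and RA changes, and the genes most alike. Trim63, Ankrd1, the day-wise values of Klhl41 and Mybph and the single markers were named after their values were seen. A gene counted in the lists is not reported here by name. Alternatives were DESeq2 1.42.0, limma-voom (limma 3.58.1), other size factors, filters, thresholds, a replicate block, prior counts and each library left out.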

Additional observations from a re-analysis of the deposited data

How the results depend on the processing

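The T14 calls were between 5 and 7 of the 7 genes, those of RA at day 14 between 2 and 4, and those of the second week without RA between 4 and 6, over the changes of tool, scaling, filter and block. With DESeq2 3 genes were called at T7, and with limma-voom 2. A filter at a mean count of 10, which leaves 5 of the genes, gave 1 RA call. At an adjusted p under 0.05, 6 genes were called for RA over both days and 6 at day 14, 8 further Z-disc genes at T7 and 5 titin and nebulin partners for RA, the last 1 at the main threshold, 2 with DESeq2 and 3 with limma-voom. The share of all genes called at 0.05 was not computed for these comparisons, so these counts cannot be set beside it. The prior count of 2 turned the RA difference of Myom3 to Myom1 to 0.094 and its day difference to −0.0147. Library size only moved the median T14 change of all genes to 0.15 and left the direction of all 7 genes at T14 as it was.

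The replicate numbers were used as a block. Same-numbered cultures of different groups had deviations correlated at a mean of 0.0321 (−0.0394 to 0.186 over 30 pairs, 5 of them over 0.1). Differently numbered cultures had a mean of −0.0160 and a highest value of 0.0837, with 0 of 60 pairs over 0.1. Most same-numbered pairs were thus at or under 0.1, but all 5 pairs over 0.1 were same-numbered. The labels do not say whether same-numbered cultures were grown together. With the block, 4 genes fell with RA, Neb (adjusted p = 3.27e-05) and Myom1 (0.00071) added, and 2 at day 7, where Neb had 0.000662. Neb also passed at day 14 (1.94e-10) and in the second week without (3.39e-15) and with RA (8.27e-11).

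With 1 library left out, calls ranged from 1 to 5 at T7, 6 to 7 at T14, 1 to 3 for RA, 0 to 1 at day 7, 2 to 3 at day 14, 4 to 6 in the second week without RA and 2 to 4 with RA. Calls of Z-disc genes ranged from 4 to 5 at T7, 9 to 10 at T14 and 3 to 5 for RA (3 without T14-RA replicate 1 or T14+RA replicate 1). M-band genes ranged from 3 to 5 at T7 (3 without T0 replicate 3). Titin and nebulin partners ranged from 1 to 3 at T7 (1 without T0 replicate 1 or 3) and 1 to 2 for RA (2 without T7-RA replicate 1 or T14+RA replicate 3). The ratio differences ranged from −1.47 to −1.32 (RA) and 0.87 to 1.02 (day) for Myom2 to Myom1, 0.48 to 1.47 and 0.60 to 1.59 for Actn3 to Actn2, and −0.56 to 0.15 and 0.61 to 1.31 for Myom3 to Myom1. The RA change of Myom1 at day 7 ranged from −0.28 to 0.026 and that of Myom3 at day 14 from −0.85 to 0.14. The difference between days ranged from −0.62 to 0.13 for Actn3 (0.047 without T14+RA replicate 1), from −0.056 to 3.25 for Myom3 and from −0.038 to 0.31 for Ldb3 (−0.00347 without T14+RA replicate 3), none of them called. The cause of these changes was not tested. Few counts of Actn2, Actn3 and Myom3 limit what can be called.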

Other observations

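Genes outside the set were ranked by the likeness of their pattern to the mean of the 5 of the 7 genes with a mean count of at least 10, over the 15 libraries and 8379 genes at that depth. The highest Pearson correlation was that of Ryr1 (r = 0.986), the calcium release channel of skeletal muscle, followed by Cacnb1 (0.982), a subunit of the skeletal L-type calcium channel, and Bin1 (0.978), which shapes the transverse tubule. Entpd4, Tnnt3, Hrc, Pygm, Cavin4 and Mroh1 had correlations between 0.957 and 0.970. With a prior count of 0.5, 8 of the 10 most alike genes were also among the 10 most alike. The libraries share the contrast of early and late cultures, so that any gene rising strongly with time correlates, and the ranking is a description.

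For single members, Myom2 was followed by Myl4 (r = 0.989) and Hrc (0.988), Neb by Tnnt3 (0.981) and Myh3 (0.980), Actn3 by Bin1 (0.971) and Entpd4 (0.970), and Myom1 by Bin1 (0.972) and Pygm (0.966). Ldb3, whose mean level at day 14 was higher with RA but not called, was followed by Tp53inp2 (0.954) and Atp2a2 (0.954). Atp2a2 encodes the calcium pump of the sarcoplasmic reticulum of slow and heart muscle. Among the 7 genes themselves, correlations ran from 0.641 between Actn2 and Ldb3 to 0.966 between Myom2 and Neb. The share of Neb in the summed CPM of the 7 genes was 71.0 ± 4.29% (SD, n = 3) in T14-RA and 61.5 ± 6.80% in T14+RA, and that of Ldb3 was 7.94 ± 0.305% and 22.6 ± 3.74%.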
